A study of Mus musculus with 26 samples.

Results

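The 8 genes described here are germline and meiosis genes: Dazl, Mael, Sycp1, Sycp3, Hormad1, Taf7l, Asz1 and Ddx4. They were taken by name, and all 8 were found among the 16718 genes of the deposited mouse expression table. The table covers 26 RNA libraries from a study of chemical reprogramming, the use of small molecules to make pluripotent stem cells out of mouse embryonic fibroblasts (MEF). A course without BrdU (7 libraries, days 6, 12, 18, 22, 30, 36 and 40) and a course without Chir (5 libraries, days 6, 12, 18, 22 and 30) were each set against a course with all chemicals (7 libraries, days 6 to 40), here called the full course. The other libraries were 6 of chemically induced pluripotent stem cells (CiPSC) and 1 of MEF on day 0. BrdU is bromodeoxyuridine, a thymidine analogue that cells build into new DNA, and Chir is the label's name for a chemical generally known as an inhibitor of the kinase GSK3 that activates Wnt signalling. The strain, the doses and the other chemicals shared by the courses are not given in the sources used here.

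The table is named as CPM, but its values had nearly the same distribution in every library, as quantile normalization and rounding give, and they are called scores here. Every library had a 75th percentile near 236, a median of 77 (76 in CiPSC 5) and a 25th percentile of 12 to 14. Sequencing depth is unknown, since the scores are not counts and their totals are nearly equal, and a score of 0 can be a failed estimate rather than absence of RNA. The share of all genes listed at 0 was 10.4% to 14.2% in CiPSC and 5.59% to 10.8% in the courses and MEF. Each course had 1 library a day, so days were the only repeats. Successive days are not independent, so the p-values between courses and those of trends with day may be too small. In bulk RNA, fewer cells of a type and less RNA per cell cannot be told apart. Scores are not scaled to gene length, so levels are compared between libraries and not between genes.

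Germ cells carry a set of genes that somatic cells normally keep silent. Dazl is an RNA-binding protein that controls the translation of germ cell messages, and Ddx4 (Vasa) is a DEAD-box RNA helicase of germ granules. Mael and Asz1 belong to the piRNA pathway, in which small RNAs silence transposons, and Asz1 sits on mitochondria. Sycp1 forms the transverse filaments and Sycp3 the lateral elements of the synaptonemal complex, which joins homologous chromosomes in meiosis, and Hormad1 is a HORMA-domain protein of the meiotic chromosome axis. Taf7l is a germ cell paralog of Taf7, a subunit of the general transcription factor TFIID. In mouse embryonic stem cells and somatic cells, promoters of such genes are known targets of DNA methylation and of a Polycomb complex, PRC1.6, which reaches DNA through MGA with MAX and through E2F6.

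In the mm10 genome (GRCm38), GENCODE M21 places all 8 as protein-coding genes. Mael lies on chr1:166201201-166238747, Hormad1 and Sycp1 on chr3:95559677-95587671 and chr3:102818499-102936100, and Asz1 on chr6:18050964-18109061. Sycp3 lies on chr10:88459569-88473236, Ddx4 on chr13:112598333-112652475, Dazl on chr17:50279395-50293636 and Taf7l on chrX:134460118-134476490. Of these, Hormad1 and Sycp3 are on the plus strand and the other 6 on the minus strand. The 250 bases before each RefSeq start were searched for the E-box CACGTG, the palindromic hexamer bound by MGA with MAX, and for TCCCGC and its reverse complement GCGGGA, the core that E2F6 binds. The E-box stood in 6 of the 8 windows, against 8.04% of the windows of 12276 genes of the expression table and 6.05% of all 27025 windows. An E2F6 core stood in 4 of 8, against 28.0% and 16.9%, and both stood in the same 4 of 8, against 2.56% and 1.47%. Other germline genes, listed further below, had the E-box less often. It stood in 3 of 20 windows of meiotic, 4 of 12 of piRNA, 2 of 11 of RNA-binding and 4 of 16 of transcription and chromatin genes. Both motifs stood in 1, 0, 1 and 1 of these windows. The windows of Hormad1 and Sycp3 held 2 E-boxes and 1 E2F6 core each, those of Mael and Ddx4 1 of each, those of Sycp1 and Taf7l 1 E-box alone, and those of Dazl and Asz1 held neither. The RefSeq start of Ddx4 lies 165 bases inside the gene as GENCODE places it, so both matches in its window, 29 and 136 bases before the RefSeq start, lie downstream of the GENCODE start. The 8 windows held 12 to 31 CpG (median 17.5), against a median of 14 in the table's genes and 6 in all windows. The letters alone do not show binding, and a window without them says nothing of the factor. The 5 windows below, read 5′ to 3′ on the gene's strand from RefSeq on GRCm38.p6, are shown because they span the motif content of the 8, with the windows of Hormad1 and Sycp3 at one end and that of Dazl at the other. Capitals mark the E-boxes (CACGTG) and the E2F6 cores (TCCCGC or GCGGGA). Hormad1 is chr3:95559427-95559676 on the plus strand, Sycp3 chr10:88459337-88459586 on the plus strand, Mael chr1:166238745-166238994 on the minus strand, Taf7l chrX:134476491-134476740 on the minus strand and Dazl chr17:50293621-50293870 on the minus strand.
Hormad1: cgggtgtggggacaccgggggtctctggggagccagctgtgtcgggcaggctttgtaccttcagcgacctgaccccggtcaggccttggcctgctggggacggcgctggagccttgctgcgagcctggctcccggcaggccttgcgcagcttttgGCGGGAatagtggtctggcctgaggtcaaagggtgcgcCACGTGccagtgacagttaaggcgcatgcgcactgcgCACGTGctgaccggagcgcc
Sycp3: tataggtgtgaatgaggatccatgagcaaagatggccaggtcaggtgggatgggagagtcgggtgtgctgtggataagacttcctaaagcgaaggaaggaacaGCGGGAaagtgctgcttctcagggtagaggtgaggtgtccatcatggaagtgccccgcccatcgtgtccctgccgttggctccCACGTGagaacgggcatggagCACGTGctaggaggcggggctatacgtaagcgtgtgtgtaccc
Mael: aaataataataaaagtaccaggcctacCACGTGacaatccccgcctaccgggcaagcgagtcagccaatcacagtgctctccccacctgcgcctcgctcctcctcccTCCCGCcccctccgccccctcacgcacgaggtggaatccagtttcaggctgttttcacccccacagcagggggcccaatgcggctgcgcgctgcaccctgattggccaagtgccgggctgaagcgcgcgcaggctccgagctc
Taf7l: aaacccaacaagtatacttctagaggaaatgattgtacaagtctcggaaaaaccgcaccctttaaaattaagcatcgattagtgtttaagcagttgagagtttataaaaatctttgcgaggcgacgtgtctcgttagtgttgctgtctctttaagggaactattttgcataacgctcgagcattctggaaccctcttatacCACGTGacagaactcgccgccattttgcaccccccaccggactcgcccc
Dazl: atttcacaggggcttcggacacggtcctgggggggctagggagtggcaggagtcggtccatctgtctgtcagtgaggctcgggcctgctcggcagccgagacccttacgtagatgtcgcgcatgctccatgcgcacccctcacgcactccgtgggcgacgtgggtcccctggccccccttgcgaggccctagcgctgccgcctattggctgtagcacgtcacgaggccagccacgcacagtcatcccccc

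**Figure D1:**
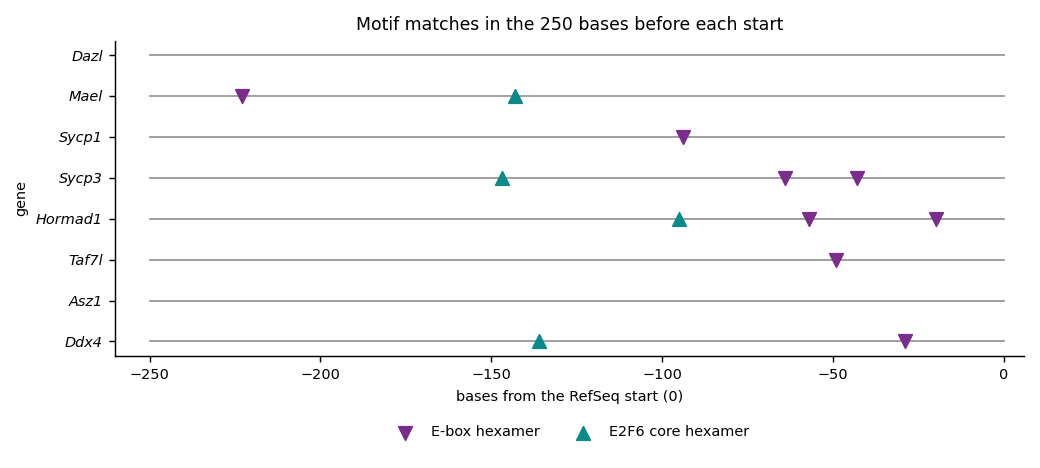
Motif matches in the 250 bases before the RefSeq start of each of the 8 genes, on an axis in bases from the start (0). Downward triangles are E-box hexamers and upward triangles E2F6 core hexamers: 6 lines carry an E-box, 4 of them also an E2F6 core, and the lines of Dazl and Asz1 carry neither.

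Over the full course, Dazl, Hormad1, Sycp3 and Mael rose with day, and the other 4 had positive slopes that did not pass the test. The slopes come from limma over MEF and the 7 days, on log2 of the score + 1, with Benjamini-Hochberg adjustment over all genes and a call at adjusted p under 0.05. By that rule 4 of 8 members rose, against 9.31% of the 16314 genes tested. Counted by library, 2 members were above 0 in MEF, 5 on day 6 of the full course, 6 on days 12 and 18, and all 8 from day 22 on.

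Dazl showed the steepest slope of the 8. Its score was 0 in MEF and 0, 0, 44, 100, 91, 192 and 425 on days 6, 12, 18, 22, 30, 36 and 40. It was listed at 0 until day 12, and its later values climbed on every sampled day but day 30, for a slope of 2.43 ± 0.34 log2 units per 10 days (limma, SE, adjusted p = 0.00323). Hormad1 appeared later, at 0 in MEF and on days 6, 12 and 18, then at 18, 32, 90 and 162 on days 22, 30, 36 and 40. Each of its last 4 values was above the one before, and the slope was 2.10 ± 0.31 log2 units per 10 days (limma, SE, adjusted p = 0.00396).

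Sycp3 and Sycp1, the members that form part of the synaptonemal complex, were present earlier. Sycp3 had 0 in MEF and 22, 11, 18, 64, 59, 68 and 98 on the 7 days. Its values from day 22 on were all above those before, with a slope of 1.28 ± 0.28 log2 units per 10 days (limma, SE, adjusted p = 0.0163). Sycp1 had 0 in MEF and 62, 36, 74, 94, 84, 85 and 83 on the 7 days. Apart from the step between MEF and day 6 its levels stayed within 36 to 94, and its slope did not pass the test (1.04 ± 0.39 log2 units per 10 days, SE, limma adjusted p = 0.101).

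Among the piRNA genes, Mael had 1 in MEF and 6, 1, 18, 22, 12, 28 and 28 on the 7 days. Its slope was 0.93 ± 0.25 log2 units per 10 days (limma, SE, adjusted p = 0.0345), a call that was lost without MEF (adjusted p = 0.102), day 30 (0.0542), day 36 (0.095) or day 40 (0.0845). Asz1 moved up and down between days, at 0 in MEF and then 10, 56, 0, 38, 48, 34 and 55, and its slope was not called (limma adjusted p = 0.15).

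Taf7l peaked in mid-course. It had 0 in MEF and 0, 10, 46, 60, 19, 16 and 37 on the 7 days, and its slope was not called (limma adjusted p = 0.0628, and 0.0443 without day 18). Ddx4 was the only member clearly above 0 in MEF, at 15, and had 4, 7, 18, 30, 16, 25 and 41 on the 7 days. Its slope was 0.51 ± 0.20 log2 units per 10 days and was not called (limma, SE, adjusted p = 0.109, and 0.0357 without MEF).

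**Figure D2:**
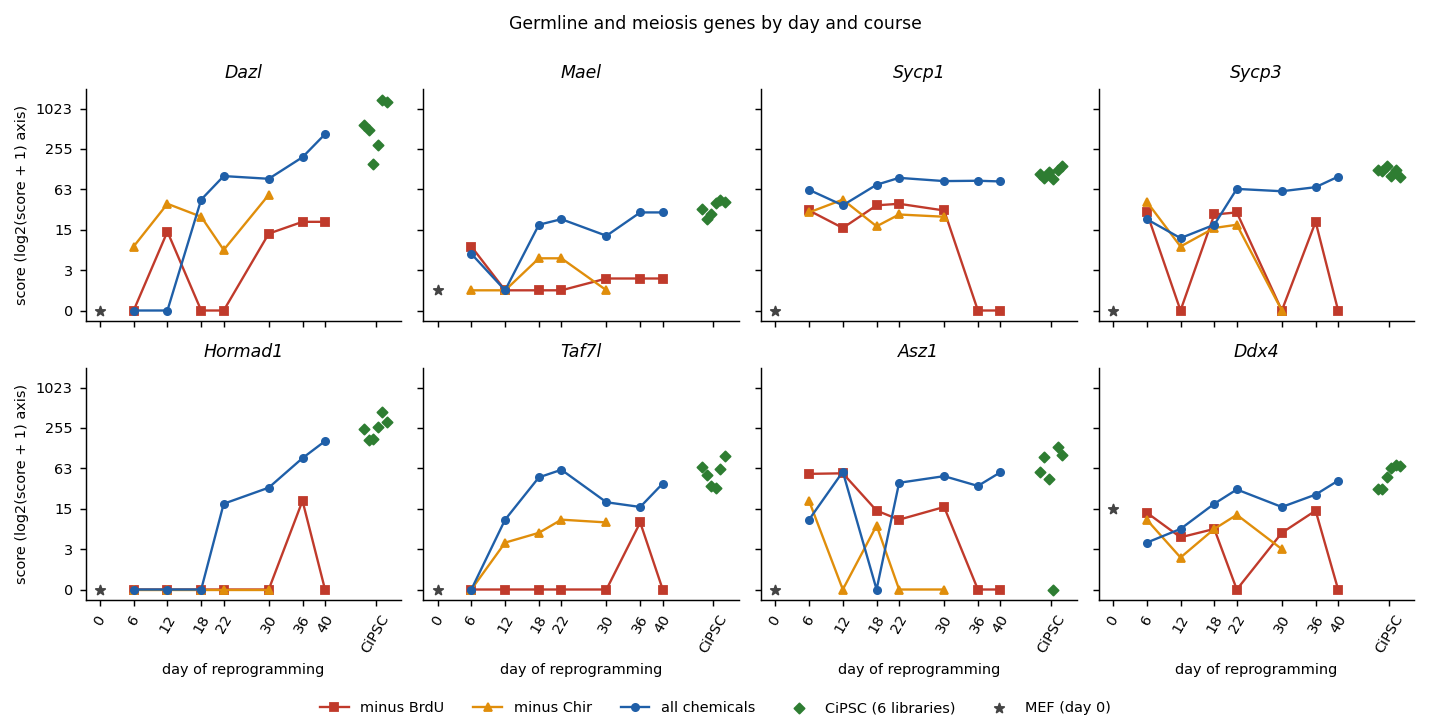
Score of each of the 8 genes (vertical axis, log2(score + 1) spacing, labelled in scores) by day of reprogramming, with MEF as day 0 and the 6 CiPSC libraries at the right; each point is 1 library and lines join the days of a course. In the full course Dazl reached 425 and Hormad1 162 on day 40, against 20 and 0 on day 40 without BrdU.

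Over the course without BrdU, 5 of the 8 genes were lower than in the full course: Taf7l, Mael, Sycp1, Sycp3 and Hormad1. All 8 differences were negative and 6 had an unadjusted p under 0.05, with Dazl, Ddx4 and Asz1 not called. Of the 16308 genes tested, 21.5% were lower. The comparison was a limma fit with day as a block, so each day without BrdU was set against the same day of the full course. For 7 of the 8 genes (not Asz1), the full course on days 30, 36 and 40 was above the highest score in MEF and in all 7 libraries without BrdU, as it was for 18.7% of all genes.

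Taf7l was listed at 0 on 6 of the 7 days without BrdU and had 9 on day 36, against 0 to 60 (median 19) in the full course. The difference was -3.61 ± 0.78 log2 units (limma, SE, adjusted p = 0.00624), and it was called under each of the 15 alternative settings run for it. Mael had 8, 1, 1, 1, 2, 2 and 2 on the 7 days without BrdU, against 1 to 28 (median 18) in the full course. Without BrdU its score was lower on 5 days, equal on day 12 and higher on day 6, for a difference of -2.15 ± 0.57 log2 units (limma, SE, adjusted p = 0.0154, and 0.119 on days 6 to 30 alone).

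Sycp1 was the only member lower on all 7 days, with 30, 16, 36, 38, 30, 0 and 0 without BrdU, against 36 to 94 (median 83) in the full course. The groups overlapped only narrowly, at 38 against 36. Its difference was -2.67 ± 0.80 log2 units (limma, SE, adjusted p = 0.0247, and 0.0569 without day 36 or 0.0561 without day 40). Sycp3 had 28, 0, 26, 28, 0, 20 and 0 without BrdU, against 11 to 98 (median 59) in the full course. On days 6 and 18 it was higher without BrdU and on the other 5 days lower, for a difference of -2.59 ± 0.90 log2 units (limma, SE, adjusted p = 0.0437). By the annotation, 52.2% of the exon bases of Sycp3 overlap exons of Chpt1, a phospholipid synthesis gene on the opposite strand, and the use of strand in counting is not given in the sources used here, so reads of this pair may not be told apart. Chpt1 itself was higher without BrdU (0.65 ± 0.13 log2 units, limma, SE, adjusted p = 0.00488) and had no called slope over the full course (adjusted p = 0.487). Hormad1 was listed at 0 on 6 of the 7 days without BrdU and had 20 on day 36, against 0 to 162 (median 18) in the full course. The courses were equal at 0 on days 6 to 18, and the difference over all days was -2.68 ± 0.94 log2 units (limma, SE, adjusted p = 0.046).

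The calls of Sycp3 and Hormad1 depended on single days. Without day 22, 30, 36 or 40 in turn the limma adjusted p of Sycp3 was 0.0586, 0.108, 0.0727 and 0.104, and that of Hormad1 was 0.105, 0.114, 0.0833 and 0.104, while without day 12 that of Sycp3 was 0.0886. As a result, 3 members were called without day 22 or day 30 and 2 without day 36 or day 40. On days 30 to 40 alone, 7 of the 8 members were lower, all but Ddx4 (limma adjusted p = 0.0637), against 25.4% of the genes tested on those days.

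Among the members not called, Dazl had 0, 14, 0, 0, 13, 20 and 20 on the 7 days without BrdU, against 0 to 425 (median 91) in the full course. On day 12 it was higher without BrdU, 14 against 0, and from day 18 on lower. Over all days the difference was -2.64 ± 1.12 log2 units (limma, SE, adjusted p = 0.084), and without day 12 it was -3.73 (adjusted p = 0.00829). Ddx4 had 13, 5, 7, 0, 6, 14 and 0 without BrdU, against 4 to 41 (median 18), and differed by -1.80 ± 0.80 log2 units (limma, SE, adjusted p = 0.0962, and 0.0331 without day 6).

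Asz1 followed another time course without BrdU. Its score was 52, 53, 14, 10, 16, 0 and 0 on the 7 days without BrdU, against 10, 56, 0, 38, 48, 34 and 55 in the full course. It was higher without BrdU on days 6 and 18 and lower on the other 5, with a difference over all days that was not called (-1.17 ± 1.11 log2 units, SE, limma adjusted p = 0.417). The effect of leaving out BrdU was itself compared between days 30 to 40 and days 6 to 22. By that test 1 of 8 members was called, Asz1, against 13.6% of all genes. The effect on Asz1 was lower by 5.22 ± 1.47 log2 units in the later period (limma, SE, adjusted p = 0.0483). The call was lost without day 6, 12, 18, 36 or 40 in turn (adjusted p = 0.0772, 0.0841, 0.0919, 0.16 and 0.175). Sycp1 had a difference between periods of -3.65 log2 units that did not pass (limma adjusted p = 0.0597, and 0.00197 without day 30).

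With day as the only term, no member had a slope that passed the test in the course without BrdU. In limma, 0 of 8 were called and 1, Dazl, had an unadjusted p under 0.05 (adjusted p = 0.252), against 0.875% of genes called in either direction. Without the MEF library, Asz1 fell by 1.75 log2 units per 10 days in that course (limma adjusted p = 0.0212).

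**Figure D3:**
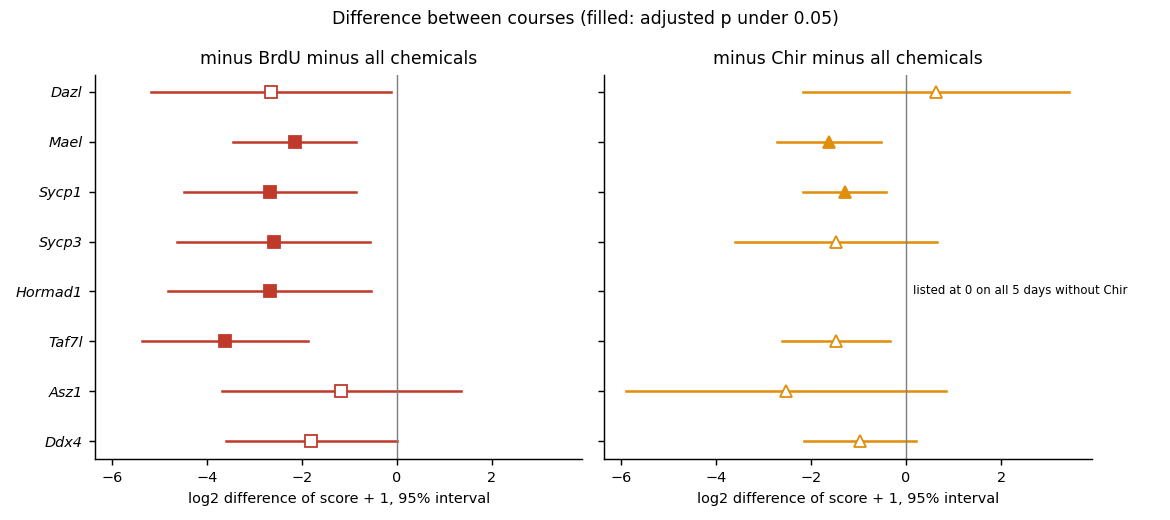
Differences of log2(score + 1) for each gene, minus BrdU minus all chemicals over 7 days (left) and minus Chir minus all chemicals over 5 days (right), with 95% intervals from limma; filled symbols passed an adjusted p of 0.05. Mael and Sycp1 are filled on both sides, and Taf7l has the most negative difference on the left (-3.61). Hormad1 has no symbol on the right, since it was listed at 0 on all 5 days without Chir.

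In the course without Chir, Mael and Sycp1 were lower than in the full course, 2 of the 8 genes, against 12.9% of the 16248 genes tested on days 6 to 30. Mael had 1, 1, 5, 5 and 1 on days 6, 12, 18, 22 and 30 without Chir, against 6, 1, 18, 22 and 12 with all chemicals. It was lower on 4 days and equal on day 12, for a difference of -1.62 ± 0.47 log2 units (limma, SE, adjusted p = 0.0424). Sycp1 had 28, 44, 17, 26 and 24 without Chir, against 62, 36, 74, 94 and 84, and was lower on every day but day 12. The difference was -1.30 ± 0.37 log2 units (limma, SE, adjusted p = 0.0398). Both calls were lost without day 6, 18, 22 or 30 in turn, with adjusted p-values of 0.0697, 0.127, 0.142 and 0.105 for Mael and 0.0603, 0.137, 0.139 and 0.101 for Sycp1.

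The axis gene Hormad1 was listed at 0 on all 5 days without Chir, against 0, 0, 0, 18 and 32 with all chemicals, so no fold is given (limma adjusted p = 0.168). Taf7l had 0, 4, 6, 10 and 9 without Chir, against 0, 10, 46, 60 and 19, a difference of -1.47 ± 0.48 log2 units that was not called (limma, SE, adjusted p = 0.06, and 0.0257 without day 6). Ddx4 had 10, 2, 7, 12 and 3 without Chir, against 4, 7, 18, 30 and 16, and was not called either (limma adjusted p = 0.181, and 0.0268 without day 6). Dazl was above 0 on every day without Chir, at 8, 38, 24, 7 and 52, against 0, 0, 44, 100 and 91 with all chemicals. Higher on the first 2 of these days and lower on the other 3, it had a difference of 0.63 ± 1.20 log2 units (limma, SE, adjusted p = 0.715), whose sign depended on which days entered. Sycp3 had 41, 8, 16, 18 and 0 without Chir, against 22, 11, 18, 64 and 59, and Asz1 had 20, 0, 8, 0 and 0, against 10, 56, 0, 38 and 48. Neither difference was called (limma adjusted p = 0.248 and 0.214).

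The courses that lacked a chemical were also compared directly over days 6 to 30. Dazl was higher without Chir than without BrdU on all 5 days, at 8, 38, 24, 7 and 52 without Chir, against 0, 14, 0, 0 and 13 without BrdU (2.82 ± 0.51 log2 units, limma, SE, adjusted p = 0.0065). Taf7l was higher without Chir on 4 days and equal at 0 on day 6, against 0 throughout these days without BrdU (limma adjusted p = 0.0228). It entered this test through the course without Chir alone, so it could only be called higher. Its call was lost without day 12, 18, 22 or 30 (adjusted p = 0.0563, 0.0801, 0.0845 and 0.0591). Asz1 was lower without Chir on all 5 days, at 20, 0, 8, 0 and 0 without Chir, against 52, 53, 14, 10 and 16 without BrdU (-3.07 ± 0.74 log2 units, limma, SE, adjusted p = 0.0185, and 0.0621 without day 22 or 0.0514 without day 30). These 3 were called out of the 7 members that could be tested, against 32.2% of all genes, and Hormad1 was listed at 0 in both courses. Mael, Sycp1, Sycp3 and Ddx4 had differences between -0.11 and 0.49 log2 units, and for Mael the 95% interval was -1.41 to 1.58.

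In CiPSC all 8 genes were above 0 in 5 of the 6 libraries, and 7 in CiPSC 4, where Asz1 was listed at 0. Against the single MEF library, 6 of 8 were higher in CiPSC, against 22.2% of the genes tested. Of the genes called, Dazl, Sycp1, Sycp3, Hormad1 and Taf7l were listed at 0 in MEF, so each could only be called higher. Dazl averaged 697 ± 517 in CiPSC and Hormad1 269 ± 103 (SD, n = 6), and both were listed at 0 in MEF (limma adjusted p = 0.00232 and 0.00014). Sycp1 averaged 112 ± 19.11 and Sycp3 117 ± 16.2 in CiPSC (SD, n = 6), again against a listed 0 in MEF (limma adjusted p = 2.37e-05 and 1.21e-05). Taf7l averaged 56.7 ± 23.8 in CiPSC, against a listed 0 in MEF (limma adjusted p = 0.00113, SD, n = 6), and Mael 33.8 ± 8.6 in CiPSC, against 1 in MEF (4.08 ± 0.45 log2 units, limma, SE, adjusted p = 0.00109). Ddx4 averaged 51.7 ± 18.99 in CiPSC (SD, n = 6), against 15 in MEF, and did not pass (1.63 ± 0.61 log2 units, limma, SE, adjusted p = 0.0834). Asz1 had 55, 93, 44, 0, 132 and 102 in CiPSC 1 to 6, against 0 in MEF, and was called only without CiPSC 4 (limma adjusted p = 0.00274, against 0.169 with it). The spread in these tests came from the 6 CiPSC libraries, and the single MEF and day 40 libraries were taken to vary as much. The labels do not say that the 6 CiPSC libraries came from separate cultures.

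Set against day 40 of the full course, none of the 8 genes differed in CiPSC by the test. In limma 0 of 8 were called, with 0 at an unadjusted p under 0.05, against 27.5% of all genes. Day 40 lay within the CiPSC range for 6 genes and below it for Sycp1 (90 to 140 in CiPSC, against 83 on day 40) and Hormad1 (166 to 446 in CiPSC, against 162 on day 40). The intervals of the differences were wide for some genes. For Sycp3 the 95% interval was -0.45 to 0.94 log2 units, for Mael -0.89 to 1.33, for Dazl -2.67 to 3.31 and for Asz1 -7.02 to 5.94, so a sizeable difference could not be seen for the last pair. On day 36 of the full course 3 genes were within the CiPSC range and 5 below. In each of 3 libraries, day 40 without BrdU, day 30 without Chir and MEF, 7 genes were below it. The CiPSC range of Asz1 was 0 to 132, so no library could lie below it. The share of all genes within or below the CiPSC range was not counted.

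**Figure D4:**
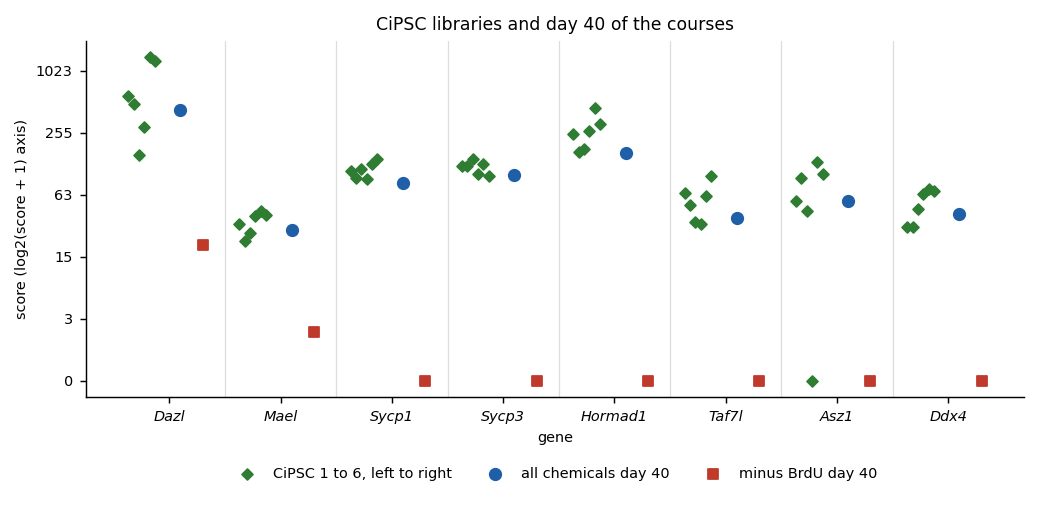
Scores of the 8 genes in CiPSC 1 to 6 (diamonds, left to right), on day 40 of the full course (circle) and on day 40 without BrdU (square), on an axis with log2(score + 1) spacing labelled in scores; each symbol is 1 library. The circle lies within the diamonds for 6 genes, while 6 of the squares lie at 0.

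Among the members, Asz1 and Dazl varied most between the CiPSC libraries. Asz1, with the listed 0 in CiPSC 4 given above, had an SD of log2(score + 1) of 2.64, larger than that of 98.2% of the 4463 genes of like level. The scores of Dazl were 578, 491, 154, 289, 1392 and 1277 in CiPSC 1 to 6. CiPSC 5 and 6 were high and CiPSC 3 and 4 low, and the SD was 1.22, larger than that of 99.6% of the 2378 genes of like level. Hormad1 had 246, 166, 176, 266, 446 and 311, with an SD of 0.53 that was larger than in 91.6% of genes of like level. Sycp3 was even, at 122, 120, 140, 100, 125 and 97, with an SD of 0.20 that was larger than in only 15.7%. Mael had 32, 22, 26, 39, 44 and 40, Sycp1 had 107, 93, 114, 90, 125 and 140, and Ddx4 had 30, 30, 46, 64, 72 and 68. Taf7l had 66, 50, 34, 32, 62 and 96. CiPSC 5 or CiPSC 6 held the highest score for 7 of the 8 genes, and Sycp3 was highest in CiPSC 3. The share of all genes with their highest score in CiPSC 5 or CiPSC 6 was not counted.

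Other germline genes, grouped in lists by function, were also lower without BrdU in part. Of 25 genes of the meiotic chromosome axis, synapsis and recombination, 16 were lower and 1 higher without BrdU, with a median difference of -1.58 log2 units, against 0.02 over all genes, of which 21.5% were lower and 21.1% higher. In the trend over the full course 8 of these 25 rose, against 9.31% of all genes. The same shares of all genes, 21.5% lower and 21.1% higher without BrdU and 9.31% rising, hold beside the list counts that follow. The first count was 10 without day 22 or day 40, and the second was 5 without day 6, 36 or 40. Stag3, a meiotic cohesin subunit, had 36, 24, 52, 28, 44, 44 and 36 without BrdU, against 103, 70, 210, 224, 130, 114 and 154 in the full course, and the groups did not overlap (-1.84 ± 0.21 log2 units, limma, SE, adjusted p = 0.000652). Rec8, the meiotic kleisin of cohesin, had 3 to 16 without BrdU, against 20 to 326 in the full course (-3.74 ± 0.62 log2 units, limma, SE, adjusted p = 0.00216). Stra8, a retinoic acid target needed for meiotic entry, was at 0 on 6 of the 7 days without BrdU and 1 on day 22, against 0, 3, 48, 64, 30, 24 and 24 in the full course (limma adjusted p = 0.00294). Smc1b, another meiotic cohesin subunit, rose over the full course, with 24 in MEF and 79, 56, 116, 121, 148, 161 and 222 on the 7 days (0.64 ± 0.11 log2 units per 10 days, limma, SE, adjusted p = 0.00714). The central element genes Syce1, Syce2 and Tex12 rose as well (limma adjusted p = 0.00634, 0.00634 and 0.0141). Syce2 was also lower without BrdU, by -1.75 ± 0.28 log2 units (limma, SE, adjusted p = 0.00184).

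Of 16 genes of the piRNA pathway, 9 were lower and 0 higher without BrdU (median -1.49 log2 units), against 21.5% and 21.1% of all genes, and 7 rose over the full course (4 without day 40), against 9.31%. Tdrd5, a Tudor domain protein, had 0, 0, 1, 0, 0, 3 and 1 without BrdU, against 3, 7, 24, 51, 68, 66 and 53 in the full course (-4.18 ± 0.52 log2 units, limma, SE, adjusted p = 0.0008). Tdrd12, another Tudor protein, came late in the full course, with 12, 84 and 185 on days 30, 36 and 40 and at most 8 before, and stayed at 0 to 2 without BrdU (limma adjusted p = 0.00773 between courses). Fkbp6, a cochaperone of piRNA formation, had 55 on day 40 of the full course, and its slope passed (1.47 ± 0.17 log2 units per 10 days, limma, SE, adjusted p = 0.00197). Gpat2 and Rnf17 were lower without BrdU (limma adjusted p = 0.00277 and 0.00679).

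Among 15 tested genes of germ cell RNA binding and specification, 7 were lower and 3 higher without BrdU (median -1.45 log2 units), and 6 of 15 rose over the full course. Without day 22, 30, 36 or 40 in turn 4 were lower, and 3 rose without day 36 and 2 without day 40. Tex19.1, which guards against transposons in germ and stem cells, stayed at a listed 0 throughout the course without BrdU, against 4, 8, 41, 106, 53, 117 and 135 in the full course. Kit, a receptor tyrosine kinase of primordial germ cells that other cell types also use, had 108, 86, 74, 41, 20, 22 and 12 without BrdU, against 176, 879, 1756, 1794, 1226, 1126 and 1166 (-4.57 ± 0.61 log2 units, limma, SE, adjusted p = 0.00101). Boll, a relative of Dazl, was likewise at a listed 0 throughout without BrdU, against 34, 28, 30, 46, 0, 14 and 32. Tex19.1 and Boll entered the test through the full course alone, so each could only be called lower. Celf4, an RNA-binding protein known from neurons, went the other way, with 26 to 70 without BrdU, against 6 to 16 (2.22 ± 0.33 log2 units, limma, SE, adjusted p = 0.00151). Dppa3 and Prdm14, which mark primordial germ cells and naive pluripotent cells, rose late in the full course and reached 227 and 56 on day 40 (limma adjusted p = 0.00376 and 0.0113), and the call of Prdm14 was lost without day 40 (0.0619). Rbm44, an RNA-binding protein, rose to 10 on day 40 (limma adjusted p = 0.0146, and 0.058 without day 36 or 0.0776 without day 40).

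In the full-course trend, the transcription and chromatin list had the highest share of calls among the germline lists, with 15 of 22 that rose. Without BrdU, 10 of 21 were lower and 1 higher (median -1.77 log2 units). This list also held genes of other functions, such as the tubulin gene Tuba3a. Morc1, an ATPase of transposon silencing, had 18, 81 and 107 on days 30, 36 and 40 of the full course and at most 7 before (1.61 ± 0.17 log2 units per 10 days, limma, SE, adjusted p = 0.00185). Taf4b, a germ cell TFIID subunit, had 60 to 92 without BrdU, against 116 to 175 in the full course, without overlap (-0.93 ± 0.15 log2 units, limma, SE, adjusted p = 0.00193). Rhox5, Rhox6 and Xlr4a were lower without BrdU (limma adjusted p = 0.00139, 0.00199 and 0.000832), and Rhox9 and Tuba3a rose over the full course (adjusted p = 0.002 and 0.00492). These 5 belong to families with close copies, so their reads may be split between copies. Zfp42, a zinc finger gene shared with pluripotent cells, was at a listed 0 throughout without BrdU and reached 206 on day 40 of the full course (limma adjusted p = 0.00202 for the slope).

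The same lists were counted in the course without Chir. Of the genes tested, 2 of 25 meiotic, 2 of 15 piRNA, 2 of 14 RNA-binding and 3 of 17 transcription and chromatin genes were lower without Chir, against 12.9% of all genes. The shares of the 4 lists lay on both sides of that figure. Their medians were -0.77, -0.68, -0.38 and -1.51 log2 units, against 0.01 over all genes. Since this comparison had 5 days and the one on BrdU 7, the counts are not a test of a difference between the chemicals. In CiPSC against day 40 of the full course, 14.8% of all genes were higher and 12.7% lower. In the lists, 2 of 25 meiotic, 4 of 16 piRNA, 3 of 17 RNA-binding and 4 of 22 transcription and chromatin genes were higher. None of these lists held a gene that was lower.

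**Figure D5:**
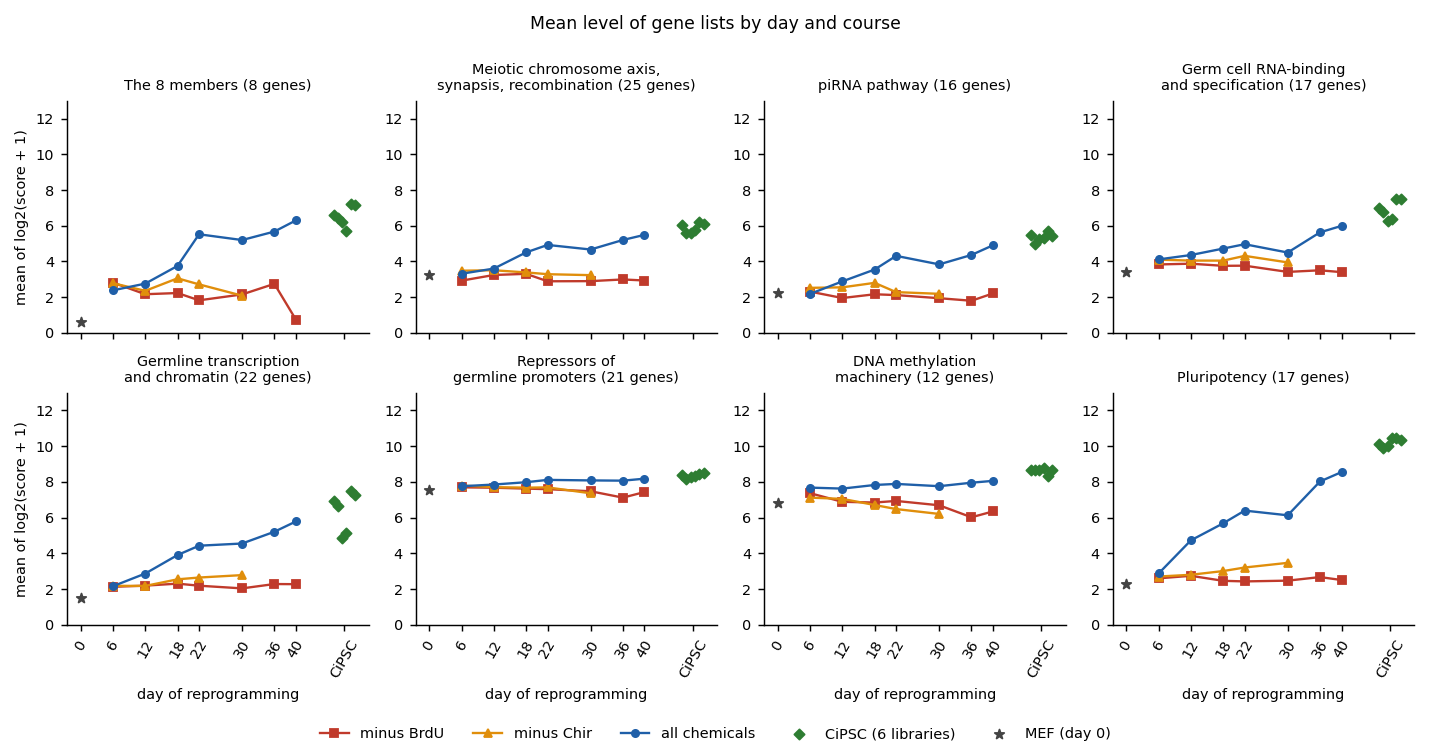
Mean of log2(score + 1) over the genes of each list (vertical axis) by day of reprogramming, with MEF as day 0 and CiPSC at the right; each point is 1 library. For the 8 members the mean was 0.75 on day 40 without BrdU, 6.30 on day 40 of the full course and 5.72 to 7.24 in CiPSC.

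Genes listed as repressors of germline promoters were measured too. Of 21 repressor genes, which include PRC1.6 subunits, 10 were lower and 2 higher without BrdU, against 21.5% and 21.1% of all genes. Over the full course 4 of 21 rose (2 without day 6, 12 or 40 and 1 without day 36), against 9.31%. They were Mga, Zbtb16, Wdr5 and Tfdp2. Of 12 alternatives, the call of Wdr5 was lost in 6, that of Tfdp2 in 8 and that of Zbtb16 in 1. Mga, the PRC1.6 scaffold, had 472, 422, 476, 518, 596, 420 and 445 without BrdU, against 706, 644, 802, 1082, 1142, 1215 and 1374 in the full course, and 392 in MEF. It was lower without BrdU on every day (-1.01 ± 0.15 log2 units without BrdU, limma, SE, adjusted p = 0.0015). L3mbtl2 and Rnf2, other PRC1.6 subunits, were also lower without BrdU (-1.43 ± 0.20 and -0.80 ± 0.10 log2 units, limma, SE, adjusted p = 0.00109 and 0.000755), and Yaf2 was higher (0.98 ± 0.12, adjusted p = 0.000825). E2f6 and Max, named here because of their motifs and outside the naming rule, were not called between these courses (limma adjusted p = 0.0741 and 0.935). E2f6 had 68 on day 40 of the full course, against 206 in MEF, with a slope that was not called (limma adjusted p = 0.0511).

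Of 12 DNA methylation genes, 8 were lower and 1 higher without BrdU (median -0.99 log2 units), against 21.5% and 21.1% of all genes. Over the full course 2 of the 12 rose (4 without day 6), a share not far from the 9.31% of all genes. Uhrf1, which brings Dnmt1 to replicating DNA, had 108, 50, 24, 26, 7, 3 and 7 without BrdU, against 132, 276, 386, 341, 366, 416 and 489 (-4.07 ± 0.69 log2 units, limma, SE, adjusted p = 0.00233). The methyltransferases Dnmt1, Dnmt3a and Dnmt3b were lower without BrdU by -1.17 ± 0.21, -1.53 ± 0.24 and -2.80 ± 0.52 log2 units (limma, SE, adjusted p = 0.003, 0.00179 and 0.00341). Tet1, a dioxygenase that oxidises methylcytosine, rose over the full course, with 16 in MEF and 40, 32, 33, 77, 65, 195 and 330 on the 7 days (limma adjusted p = 0.00481).

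Markers of differentiated germ cells and of the somatic gonad were counted as well. Of 16 spermatid and sperm genes 4 stood in the table, and 2 of these were lower without BrdU, against 21.5% of all genes. Odf2 had 255 to 324 without BrdU, against 325 to 746 in the full course (limma adjusted p = 0.0449). Ldhc had 0 on all 7 days, against 1 to 6 in the full course, values below the 25th percentile. It entered the test through the full course alone, so it could only be called lower. The call of Odf2 was lost without day 18, 22, 30, 36 or 40 in turn (adjusted p = 0.0806, 0.0718, 0.0503, 0.113 and 0.0893). The summed score of these 4 was 455 to 608 without BrdU, 462 to 548 without Chir, 500 to 885 in the full course, 1019 to 1456 in CiPSC and 532 in MEF. Of 12 oocyte genes 3 stood in the table, and their summed score was 8 to 28 without BrdU, 5 to 37 without Chir, 5 to 47 in the full course, 35 to 73 in CiPSC and 10 in MEF. Gdf9, an oocyte growth factor, rose over the full course from 3 in MEF to 34 on day 40 (limma adjusted p = 0.00968). In CiPSC 1 to 6 its score was 4, 5, 4, 1, 6 and 1. Of 14 somatic gonad genes 10 stood in the table, among them Dmrt1, which is also in the germline transcription list, and 5 were higher and 1 lower without BrdU (median 0.64 log2 units). Star, which carries cholesterol into mitochondria for steroid synthesis, had 108, 117, 280, 279, 126, 141 and 220 without BrdU, against 49, 20, 20, 24, 12, 15 and 7 in the full course, without overlap (3.15 ± 0.37 log2 units, limma, SE, adjusted p = 0.00072). The steroid enzymes Hsd3b1 and Cyp11a1 and the tight junction gene Cldn11 were also higher without BrdU (limma adjusted p = 0.00258, 0.00584 and 0.0014), Cldn11 not so with no day block (0.109). Insl3, a hormone of Leydig cells, was higher (limma adjusted p = 0.0347) and Fst, a binding protein of activin, was lower (0.0303), but the call of Insl3 was lost without day 6, 12, 18, 22 or 36 (0.0524, 0.0685, 0.0685, 0.0798 and 0.0537) and that of Fst without day 12, 18 or 22 (0.0706, 0.0703 and 0.0775). The summed score of the 10 was 758 to 1767 without BrdU, 585 to 962 without Chir, 509 to 1370 in the full course, 143 to 380 in CiPSC and 760 in MEF. The genes of these lists outside the table were not analysed here.

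Markers of other cell types differed between the same groups, in more than one direction. All 17 pluripotency markers stood in the table, and 12 were lower without BrdU (median -3.51 log2 units) and 12 rose over the full course. Their summed score was 1154 to 3225 without BrdU, 1158 to 2621 without Chir, 3858 to 10450 in the full course, 36524 to 50200 in CiPSC and 1616 in MEF. Of 12 extraembryonic endoderm markers, 11 were lower without BrdU and 7 rose over the full course. All 12 were lower in CiPSC than on day 40, against 12.7% of all genes. Their summed score was 3012 to 6601 without BrdU, 2897 to 5659 without Chir, 6228 to 50323 in the full course, 299 to 454 in CiPSC and 7705 in MEF. Gata4, a defining marker of that lineage, had 9, 14, 21, 30, 0 and 0 in CiPSC 1 to 6, against 1557 on day 40 of the full course. Of 13 fibroblast markers, 10 were higher without BrdU and 9 fell over the full course, against 7.42% of all genes that fell. Their summed score was 40803 to 90154 without BrdU, 10600 to 38028 without Chir, 5795 to 61595 in the full course, 110 to 619 in CiPSC and 83540 in MEF. Of 8 macrophage markers tested between these courses, 2 were higher and 1 lower without BrdU. All 10 summed to 87 to 226 without BrdU, 403 to 466 without Chir, 133 to 376 in the full course, 29 to 64 in CiPSC and 4410 in MEF. The part of these cell types in the levels of the 8 genes was not tested.

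The members and the pluripotency markers were also set side by side by the first day from which the full course stayed above MEF and all 7 libraries without BrdU. Among the 17 pluripotency markers this day was day 6 for 4, day 12 for 8, day 30 for 2, day 36 for 1 and day 40 for 1. Among the 8 members it was day 12 for 1, day 18 for 4, and day 22, 30 and 40 for 1 each. Over all 16718 genes the count was 657 for day 6, 708 for day 12, 617 for day 18 and 464 for day 22. It was 676 for day 30, 542 for day 36 and 860 for day 40. The most frequent first day was thus day 12 among the pluripotency markers and day 18 among the members. Nanog and Sox2 were picked after their values were seen and do not stand for the list. Nanog had 32, 422 and 771 and Sox2 11, 371 and 660 on days 30, 36 and 40 of the full course, and neither was above 5 on days 6 to 22. On day 22 Dazl was at 100, Sycp3 at 64 and Taf7l at 60, and levels of different genes are not compared. Pou5f1 was present earlier, with 24, 112 and 193 on days 12, 18 and 22 and 1046 on day 40.

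The 8 genes did not form 1 pattern over MEF and the 3 courses. Across these 20 libraries, which share days and courses and are not independent, the Pearson r of log2(score + 1) between pairs of members ran between 0.01 (Taf7l and Asz1) and 0.71 (Dazl and Taf7l). Hormad1 and Mael had an r of 0.70. Among 13926 genes with a mean score of at least 10, the gene most like Taf7l was 4933402E13Rik (r = 0.94), with Tdh and Zfp985 next (both r = 0.91). For Hormad1 it was Dmtn (0.91), then Gm10058 (0.90) and Gm14819 (0.88). Sycp1 was most like Wipf2 (0.90), then Map3k5 (0.90) and Ugt2b36 (0.88), and Mael most like Slc30a1 (0.90), then Plekhf2 and 4930539E08Rik (both 0.89). For Dazl the closest were Rdm1 (0.88), Rev1 (0.86) and Matr3 (0.85), and for Sycp3 Slc9a3r1 (0.84) and Alkbh1 (0.80). Asz1 was most like Pex5 (0.84), then Sphk2 and Strn4 (both 0.80), and Ddx4 most like Slc8a2 (0.79), then Ppwd1 (0.78) and Xlr4b (0.77).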

How the data were processed

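RNA was measured in 26 libraries. Per the labels' protocols, total RNA was taken up in TRIzol, and libraries from a TruSeq kit were sequenced on the NextSeq 500 instrument. Bowtie2, RSEM, bcl2fastq and the mm10 build are named, without versions, in the submitters' processing notes. The deposited values are a score: the authors' table has CPM in its name, but all 26 libraries share 1 distribution (totals of 4143561 to 4162600, maximum 21988), as quantile normalization and rounding give. CPM had been assumed when the tests were chosen. The deposited table is not counts, so no count test was run and depth is unknown. All columns were mapped to samples, and 3 repeated gene names were kept. GENCODE M21 gave gene positions and exon overlaps, and RefSeq on GRCm38.p6 the promoter windows of all 8 members.

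Scores were analysed as log2(score + 1) with limma 3.58.1 in R 4.3.3, with an intensity trend, keeping genes whose mean score in a fit was 1 or more. A difference understates the change of genes near 0. A gene at 0 throughout a group passed the mean filter through the other group alone, so its call had a single possible direction. P-values were two-sided and Benjamini-Hochberg adjusted over all genes, with calls under 0.05, in 8 comparisons. Day was a block between courses. The code was tested on simulated data. Alternatives were a pseudocount of 5, mean filters of above 0 and 5, no intensity trend, no day block, periods of days, 1 fit over the courses, only the groups compared, and each day or CiPSC library left out. Members and gene lists were chosen with earlier results of these data known. Besides the 8 members, the text names up to 4 called genes of a list with the smallest adjusted p in the BrdU comparison and in the full-course trend, and for each member the 3 genes of highest r, of which 1 is not reported here. Other genes named (Gata4, Nanog, Sox2, Pou5f1, E2f6, Max, Chpt1, Insl3 and Fst) were chosen after their values were seen.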

Additional observations from a re-analysis of the deposited data

Results flagged for a closer look

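The effect of leaving out BrdU on Asz1, a piRNA gene, differed between periods: it was lower by 5.22 log2 units (a difference of -5.22 ± 1.47, SE, limma adjusted p = 0.0483) on days 30 to 40 than on days 6 to 22. This result was marked because the difference between periods itself passed the test. Asz1 was the only 1 of the 8 members called, against 13.6% of all genes, so the count is no more than the background, and no member was called with no intensity trend, with no day block or with all genes above 0. The score of Asz1 without BrdU was 52, 53, 14 and 10 on days 6 to 22, against 10, 56, 0 and 38 in the full course, and 16, 0 and 0 on days 30 to 40, against 48, 34 and 55. With each day left out in turn the difference between periods was -6.54 to -4.28, and its adjusted p was 0.0208 to 0.175.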

How the results depend on the processing

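Of the values for the 8 members under alternatives, 661 kept their direction and side of the threshold, 18 passed it and 49 no longer passed it only under the alternative, and 22 changed sign. Depth is unknown, many values near 0 enter, and 1 library a day limits every comparison of courses. The courses were paired by day in the fits given, and dropping that day block is among the alternatives. For the other genes named in the BrdU comparison and the full-course trend, 723 values kept their call, 43 lost it and none changed sign. The causes of the changes below were not tested. For minus BrdU against all chemicals, 3 members were called with no intensity trend, 2 on days 6 to 30 only (3735 genes, and Asz1 at 0.55 log2 units) and 2 to 6 with 1 day left out. For minus Chir against all chemicals, 1 member was called with a mean filter of 5, with no intensity trend, with no day block or in 1 fit over the 3 courses (6895 genes there), and 4 on days 18 to 30 only. With 1 day left out, that comparison called 0 to 2 members and 25 to 4994 genes. Its Dazl difference was -0.031 with a pseudocount of 5, -1.77 on days 18 to 30 only and -0.53 to 1.70 with 1 day left out. For minus Chir against minus BrdU, leaving out 1 day gave 1 to 3 members and 2772 to 4783 genes, and differences of -0.29 to 0.65 for Mael, -0.49 to 0.12 for Sycp1, -0.19 to 0.77 for Sycp3 and -0.54 to 0.64 for Ddx4. In 1 fit over the 3 courses, 1 member was called there and Sycp1 was at 0.63. For the BrdU effect by period, 2 members were called with a pseudocount of 5 and 0 with all genes above 0, with no intensity trend or with no day block. With 1 day left out it called 0 to 2 members and 713 to 2472 genes, with -2.89 to 0.63 for Dazl, -1.05 to 1.54 for Taf7l and -2.43 to 0.25 for Ddx4. With 1 library left out, the full-course trend called 1377 to 2862 genes. The trend without BrdU then called 0 to 1 members and 0 to 1095 genes, with slopes of -0.18 to 0.19 for Mael, -1.45 to 0.037 for Sycp1 and -0.66 to 0.46 for Sycp3. For CiPSC against day 40, the Asz1 difference was -0.90 to 0.51 with 1 CiPSC library left out.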
